A study of Arabidopsis thaliana with 28 samples.

Results

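A set of 10 genes of salicylic acid and jasmonate defence was followed in autotetraploid and diploid Arabidopsis. They were chosen by name, by a rule that uses no measured value but with earlier results of these data known: the effector genes PR1, PR2, PR5, PDF1.2a and PAD3, the signalling genes EDS1 and PAD4, the synthesis genes ICS1 and FMO1, and the receptor gene NPR1. All 10 were present among the 33557 genes of the expression table, of which 33278 are nuclear. The study compared 4 × Col-0, a line with 4 chromosome sets that was made with colchicine from Col-0, and its diploid progenitor Col-0, the accession used as wild type. Both were grown on sucrose-containing medium in long days for 10 days after 3 days of cold, with no treatment, and the methods name the aerial parts as the material while the labels say seedling. For each genotype there were 3 RNA-seq libraries, 2 ChIP-seq libraries for H3K4me3, 2 for H3K27me3, 1 for histone H3 and 2 Hi-C libraries. Another 4 ChIP input libraries per genotype were not used here, since the methods name anti-H3 reads as the control of the peaks. The single tetraploid line was the only one compared, so line and ploidy cannot be told apart.

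The genes lie on all chromosomes but the fourth (TAIR10). On chromosome 1 are FMO1 (AT1G19250, chr1:6650529-6653078, minus strand), NPR1 (AT1G64280, chr1:23852748-23855566, minus), ICS1 (AT1G74710, chr1:28070295-28074148, plus) and PR5 (AT1G75040, chr1:28177703-28178940, plus). PR1 (AT2G14610) is at chr2:6241704-6242463 on the minus strand, and PDF1.2a (AT5G44420) at chr5:17907069-17907598 on the minus strand. On chromosome 3 are PAD3 (AT3G26830, chr3:9887948-9889705, plus), EDS1 (AT3G48090, chr3:17755374-17757780, minus), PAD4 (AT3G52430, chr3:19431371-19434403, plus) and PR2 (AT3G57260, chr3:21188517-21189859, minus).

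The libraries held 16520 to 17116 H3K4me3 peaks, 6274 to 7127 H3K27me3 peaks and 21509 to 23887 anti-H3 peaks, and their read depth is not given in the files. Of 5 leaf marker genes 4 had values above 0 in both genotypes, and their summed level was 19732 FPKM in 4 × Col-0 and 22201 FPKM in Col-0. The other leaf gene, LHCB1.3, was listed at 0 in both, so a 0 here need not mean that a gene is silent. The study calls the Hi-C and ChIP-seq libraries of a genotype biological replicates, but no label says that they came from separate cultures, so p-values measure the spread between these libraries.

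Salicylic acid defends plants mainly against pathogens that feed on living tissue, and jasmonate together with ethylene against insects and pathogens that kill tissue. ICS1 makes the precursor of salicylic acid in the chloroplast, EDS1 and PAD4 form a complex that relays signals from immune receptors, and FMO1 makes N-hydroxypipecolic acid, the signal of systemic acquired resistance. NPR1 binds salicylic acid and works with TGA transcription factors on PR1, PR2 (a β-1,3-glucanase) and PR5 (a thaumatin-like protein), whereas PDF1.2a, a defensin, is the classic marker of jasmonate and ethylene, and PAD3 is the cytochrome P450 of the last step of camalexin synthesis. H3K4me3 marks the start of active genes, and H3K27me3 is the Polycomb mark of genes kept silent until needed.

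The windows of 300 bases before the RefSeq gene starts of PR2, PR5 and PDF1.2a are shown because these genes are common readouts of both hormones and differ in their marks. They were read from the TAIR10.1 assembly in the direction of the gene and overlap no annotated exon. Capitals mark TTGAC, the core of the W-box bound by WRKY factors, TGACG, the core bound by TGA factors, and GCCGCC, the GCC box bound by ethylene response factors, each searched on both strands, so that the capitals of PR5 are a W-box core on the other strand.
PR2: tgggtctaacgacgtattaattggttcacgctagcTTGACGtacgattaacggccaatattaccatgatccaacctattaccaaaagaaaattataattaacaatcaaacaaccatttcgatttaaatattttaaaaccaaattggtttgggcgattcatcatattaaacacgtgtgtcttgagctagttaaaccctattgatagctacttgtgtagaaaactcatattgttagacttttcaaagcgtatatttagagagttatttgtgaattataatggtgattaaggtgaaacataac
PR5: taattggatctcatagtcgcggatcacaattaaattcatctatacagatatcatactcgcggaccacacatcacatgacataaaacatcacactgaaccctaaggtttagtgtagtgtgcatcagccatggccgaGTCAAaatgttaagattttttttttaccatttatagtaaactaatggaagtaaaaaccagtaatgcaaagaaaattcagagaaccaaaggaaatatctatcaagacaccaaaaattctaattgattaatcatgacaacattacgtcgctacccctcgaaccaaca
PDF1.2a: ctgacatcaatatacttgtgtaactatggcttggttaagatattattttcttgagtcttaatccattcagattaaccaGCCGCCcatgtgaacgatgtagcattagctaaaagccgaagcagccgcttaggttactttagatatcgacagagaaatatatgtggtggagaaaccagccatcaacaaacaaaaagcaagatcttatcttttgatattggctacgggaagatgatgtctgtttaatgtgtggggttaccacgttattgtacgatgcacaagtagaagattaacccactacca
The windows lie on the minus strand at chr3:21189968-21190267 (PR2) and chr5:17907639-17907938 (PDF1.2a), and on the plus strand at chr1:28177370-28177669 (PR5). PR5 held 1 TTGAC, on the other strand, and PR2 held 1 TTGAC whose last 4 letters are shared with the TGACG beside it. The W-box core occurred in 49.5% and the TGA core in 20.9% of the 37878 windows of the same length before all nuclear genes, so these matches are common. PDF1.2a held GCCGCC once (position -222 to -217 from its start), a motif found in 2.34% of all windows and in neither of the other windows shown. A match is a run of letters and not a shown binding site. H3K27me3 peaks covered all of the PR2 and PDF1.2a windows in all 4 libraries but at most 3.00% of the PR5 window in any library, and no H3K4me3 peak reached any of these windows.

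The transcript levels were all low to moderate in these untreated seedlings. The unit is FPKM, fragments scaled by gene length and by the mapped total, given as 1 value per gene and genotype, so these levels have no error and no test. None of the 10 genes was 2-fold higher or lower in 4 × Col-0 when compared as log2(FPKM + 1), a scale that shrinks the ratios of low genes. Over the nuclear genes, 0.604% were 2-fold higher and 0.4% 2-fold lower, or 0.445% and 0.442% after scaling to equal upper quartiles. Before scaling these were 201 and 133 genes, all among the 18346 nuclear genes of at least 1 FPKM in a genotype. Of the 10 genes, 8 reached that level, so the shares over all nuclear genes are low as a background. With a pseudocount of 0.1 in place of 1, PR1 and PDF1.2a passed 2-fold upwards (log2 ratios 1.16 and 1.33), where 2.36% of nuclear genes did so and 1.49% passed downwards.

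The receptor and signalling genes lay at the upper end. NPR1 was listed at 15.2 FPKM in 4 × Col-0 and 15.4 FPKM in Col-0, above 77.3% and 78.4% of nuclear genes. PAD4 was at 6.67 FPKM in 4 × Col-0 and 6.29 FPKM in Col-0, and ICS1 at 5.71 FPKM in 4 × Col-0 and 5.33 FPKM in Col-0. These 3 genes had log2 ratios between -0.02 and 0.08. EDS1 stood at 6.48 FPKM in 4 × Col-0 and 3.84 FPKM in Col-0 (log2 ratio 0.63), and 7.17% of the 18346 nuclear genes of at least 1 FPKM in a genotype had a change as large or larger. Its tandem copy EDS1B (AT3G48080) was at 1.11 FPKM in 4 × Col-0 and 0.836 FPKM in Col-0 (log2 ratio 0.20), and because these copies are near-identical, reads may have been split between them.

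The effectors spanned both directions. PR5 was at 5.36 FPKM in 4 × Col-0 and 9.403 FPKM in Col-0 (log2 ratio -0.71, as large a change as in 5.16% of expressed genes). PR2 was at 1.40 FPKM in 4 × Col-0 and 2.33 FPKM in Col-0 (log2 ratio -0.47). PR1, often used together with them as a salicylic acid marker, was at 0.417 FPKM in 4 × Col-0 and 0.130 FPKM in Col-0 (log2 ratio 0.33), so the 3 PR genes did not share a direction. PDF1.2a was at 1.39 FPKM in 4 × Col-0 and 0.491 FPKM in Col-0 (log2 ratio 0.68, as large as in 5.84% of expressed genes). PAD3 was at 2.57 FPKM in 4 × Col-0 and 2.22 FPKM in Col-0 (log2 ratio 0.15), and FMO1 at 0.481 FPKM in 4 × Col-0 and 0.5998 FPKM in Col-0 (log2 ratio -0.11). PR1 and FMO1 stayed under 1 FPKM in both genotypes.

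In all, 6 of the 10 genes had a higher and 4 a lower value in 4 × Col-0. Among the 18346 expressed genes 61.4% were higher, so 6 of 10 is near the share over all genes. Their median log2 ratio of 0.08 equalled that of the 18346 expressed genes (0.08). After scaling 4 × Col-0 by 0.953 so that the upper quartiles matched, these medians were 0.02 and 0.02, 52.5% of expressed genes were higher, and no gene of the 10 turned its direction. The order of the levels in 4 × Col-0 was NPR1, PAD4, EDS1, ICS1, PR5, PAD3, PR2, PDF1.2a, FMO1 and PR1. In Col-0 it was NPR1, PR5, PAD4, ICS1, EDS1, PR2, PAD3, FMO1, PDF1.2a and PR1. Whether neighbours in these orders differ could not be tested with 1 value per genotype. In bulk tissue, fewer expressing cells and less RNA per cell cannot be told apart.

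**Figure D1:**
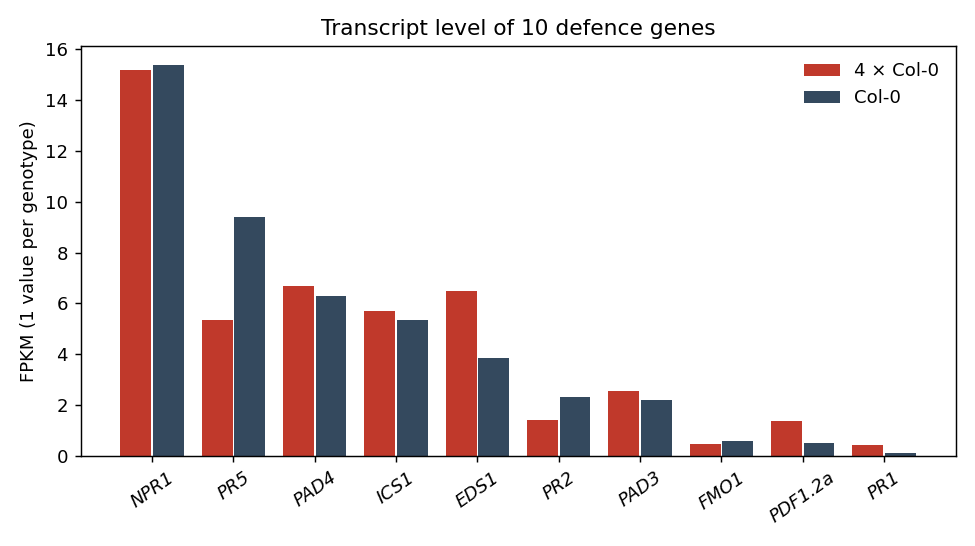
Bars give the FPKM value (vertical axis) of each of the 10 genes, left bar for 4 × Col-0 and right bar for Col-0, 1 value per genotype and no error. NPR1 is highest at 15.2 and 15.4 FPKM, PR5 is lower and EDS1 and PDF1.2a are higher in 4 × Col-0, and the 5 genes on the right are all under 3 FPKM.

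The close relatives were mostly low too. PDF1.2b (AT2G26020) was at 1.16 FPKM in 4 × Col-0 and 0.715 FPKM in Col-0 (log2 ratio 0.33), and PDF1.2c (AT5G44430), next to PDF1.2a, at 0.0851 FPKM in 4 × Col-0 and 0.0898 FPKM in Col-0. These defensin genes are near-identical copies and their separate values are uncertain. PRB1 (AT2G14580), the basic relative of PR1, was at 5.42 FPKM in 4 × Col-0 and 6.72 FPKM in Col-0 (log2 ratio -0.27). Of the β-1,3-glucanase genes beside PR2, BG1 (AT3G57270) was listed at 0 in 4 × Col-0 and at 0.0172 FPKM in Col-0, and BG3 (AT3G57240) was at 0.361 FPKM in 4 × Col-0 and 0.578 FPKM in Col-0.

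Around these genes, 5 lists of 56 other pathway genes were read in the same table. Where 0.604% of nuclear genes passed 2-fold upwards and 0.4% downwards, 2 of the 56 passed, both downwards. All nuclear genes that passed (201 upwards and 133 downwards) were among the 18346 expressed genes, as were 45 of the 56. The shares over all nuclear genes are thus low as a background. Both belong to the 9 genes of the jasmonate and ethylene response. PR3 (AT3G12500), a basic chitinase, was at 59.0 FPKM in 4 × Col-0 and 203 FPKM in Col-0 (log2 ratio -1.76). PR4 (AT3G04720), a hevein-like protein, was at 390.2 FPKM in 4 × Col-0 and 859 FPKM in Col-0 (log2 ratio -1.14). Of this list, 7 genes had a lower and 2 a higher value in 4 × Col-0, with a median log2 ratio of -0.35, while PDF1.2a, a target of the same branch, had a higher value. Among all expressed genes 61.4% had a higher value, and whether the list differs from that share was not tested. All 6 root marker genes had values above 0 in both genotypes, 5 of the 6 were lower in 4 × Col-0, and their summed level was 101 FPKM in 4 × Col-0 and 133 FPKM in Col-0. The part of root tissue in the PR3 and PR4 values was not tested.

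In the other 4 lists no gene passed 2-fold. Among the 14 genes of salicylic acid perception and response, 10 had a higher and 4 a lower value in 4 × Col-0 (median log2 ratio 0.15), to be read against the 61.4% of expressed genes that were higher. WRKY70, a transcription factor that favours salicylic acid over jasmonate responses, was at 9.88 FPKM in 4 × Col-0 and 5.25 FPKM in Col-0 (log2 ratio 0.80), and NDR1, needed by a class of immune receptors, at 3.98 FPKM in 4 × Col-0 and 5.79 FPKM in Col-0 (log2 ratio -0.45). In the synthesis of salicylic acid and N-hydroxypipecolic acid, 4 of 9 genes were higher and 5 lower (median -0.08). Its extremes were ICS2, a further isochorismate synthase gene, at 9.87 FPKM in 4 × Col-0 and 8.27 FPKM in Col-0 (log2 ratio 0.23), and SARD4 at 5.34 FPKM in 4 × Col-0 and 6.89 FPKM in Col-0 (log2 ratio -0.32). In jasmonate synthesis and perception, 6 of 17 genes were higher and 11 lower (median -0.05), with the repressor gene JAZ1 at 11.3 FPKM in 4 × Col-0 and 7.84 FPKM in Col-0 (log2 ratio 0.48). In that list AOC1, an allene oxide cyclase gene, was at 45.3 FPKM in 4 × Col-0 and 73.5 FPKM in Col-0 (log2 ratio -0.69). In the camalexin pathway, 5 of 7 genes were higher and 2 lower (median 0.12), with GSTF6, a glutathione transferase gene, at 54.0 FPKM in 4 × Col-0 and 41.9 FPKM in Col-0 (log2 ratio 0.36). There CYP79B2, which makes indole-3-acetaldoxime from tryptophan, was at 29.5 FPKM in 4 × Col-0 and 35.3 FPKM in Col-0 (log2 ratio -0.25). The medians of all 5 lists kept their sign after upper-quartile scaling, while the genes with a higher value then numbered 4 of 17 in jasmonate synthesis and perception and 4 of 7 in the camalexin pathway.

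**Figure D2:**
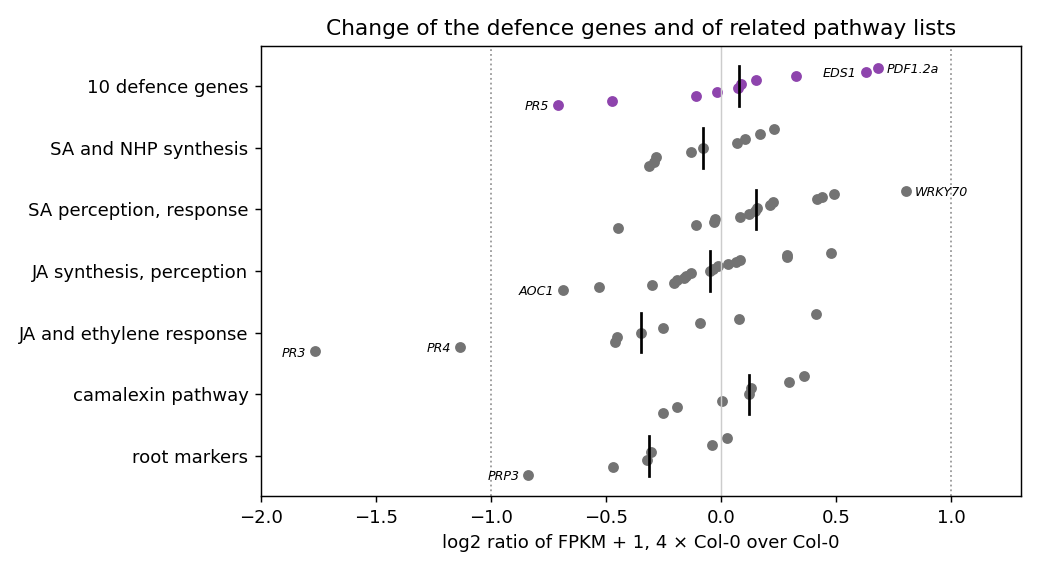
Each dot is the log2 ratio of FPKM + 1, 4 × Col-0 over Col-0 (horizontal axis), of a gene, black bars are list medians, dotted lines mark 2-fold, and dots are spread vertically for display only. SA is salicylic acid, NHP N-hydroxypipecolic acid and JA jasmonate. Among the genes drawn PR3 (-1.76) and PR4 (-1.14) alone lie past 2-fold, while the 10 defence genes span -0.71 (PR5) to 0.68 (PDF1.2a).

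H3K27me3 cover of at least 50% divided the 10 genes along their transcript levels in both genotypes, while PR5 and PAD4 had mixed or partial marks. H3K27me3 peaks covered at least 50% of PR1, PR2, PDF1.2a, PAD3 and FMO1 in all 4 libraries, and none of these 5 genes had a H3K4me3 peak in any library. A H3K27me3 peak in all 4 libraries with H3K4me3 in none was found on 15.2% of nuclear genes. PR1, PR2, PDF1.2a, PAD3 and FMO1 were also the 5 genes with the lowest FPKM in both genotypes. Such H3K27me3 cover was found on 15.6% of nuclear genes, on 22.0% of genes between 0.1 and 3 FPKM and on 6.74% of genes between 3 and 20 FPKM. H3K4me3 peaks lay on NPR1, EDS1, ICS1 and PR5 in all 4 libraries, against 44.3% of nuclear genes, 39.8% of genes between 0.1 and 3 FPKM and 75.9% of genes between 3 and 20 FPKM. NPR1, EDS1 and ICS1 had no H3K27me3 peak in any library, which with H3K4me3 in all 4 was the state of 39.5% of nuclear genes. None of the 10 had both marks in all 8 libraries, as 3.47% of nuclear genes did. PAD4 had a peak of each mark in at least 1 library but of neither mark in all 4. These values describe both genotypes and compare nothing between them.

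The strength of the H3K27me3 peaks split these 5 genes again. With peaks limited to a q-value of 1e-05 or less, only PDF1.2a and FMO1 were still covered at 50% in all 4 libraries, a state then found on 9.66% of nuclear genes. The peaks on PR1, PR2 and PAD3 had -log10 q-values of 1.90 to 4.97, and those on PDF1.2a and FMO1 of 10.6 to 15.1. With the 1 kb before the start added to the gene, PR2, PDF1.2a and FMO1 stayed above 50%, as 12.3% of nuclear genes did. Histone H3 itself gave anti-H3 peaks in both genotypes on PR1, PR2, PR5, PAD3, PAD4 and NPR1 (43.0% of nuclear genes had them), with the highest fold enrichment on PR1 (8.03 in 4 × Col-0, against 8.39 in Col-0), and none on PDF1.2a, EDS1 and ICS1. The methods name anti-H3 reads as the control of peak calling, and their part in the weaker peaks of PR1 and PR2 was not tested.

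**Figure D3:**
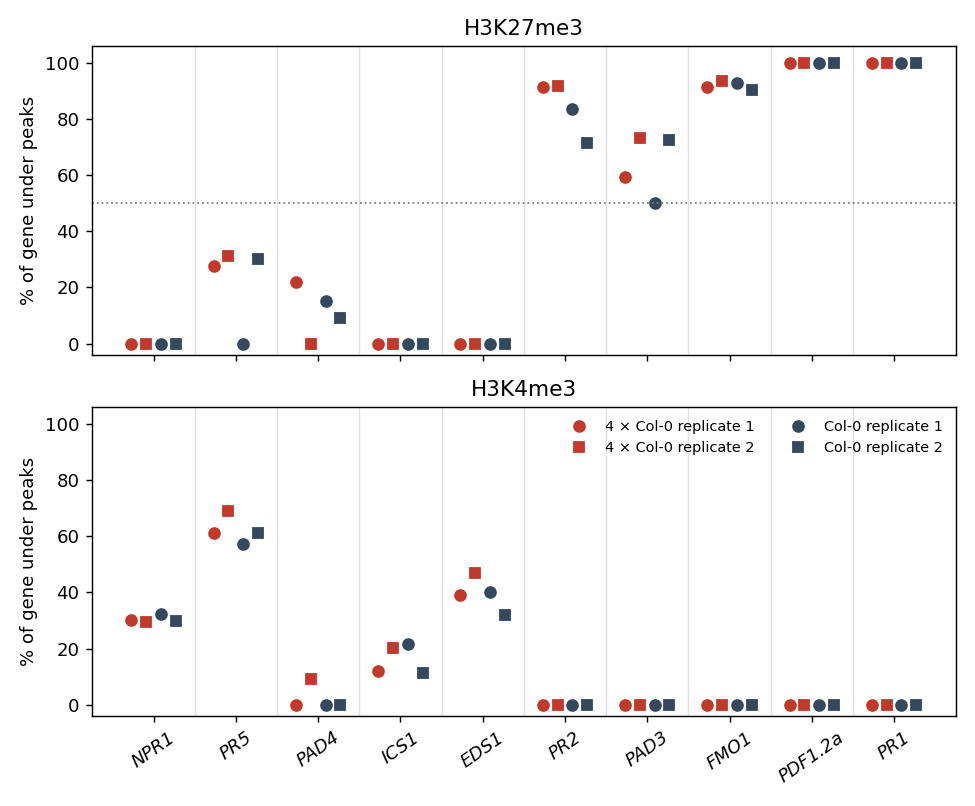
Points give the percent of each gene (vertical axis) under H3K27me3 peaks in the upper and H3K4me3 peaks in the lower panel, per library, with 4 × Col-0 (red) left of Col-0 (dark) and genes ordered by their FPKM in Col-0 from high to low. The 5 genes at the right have 50% or more under H3K27me3 (dotted line at 50%) and 0% under H3K4me3 in all 4 libraries.

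PDF1.2a lay inside a broad H3K27me3 domain. A single peak spanned 7542 and 7700 bases in the 4 × Col-0 libraries and 7105 and 7644 bases in the Col-0 libraries, and covered all of PDF1.2a and of its 300-base upstream window. The same peak covered all of the pseudogene AT5G44418, of PDF1.2c and of AT5G44440 in all 4 libraries, although AT5G44440 was at 3.51 FPKM in 4 × Col-0 and 2.54 FPKM in Col-0. The fold enrichment of this whole peak was 3.23 and 3.38 in 4 × Col-0, against 3.27 and 3.79 in Col-0. PDF1.2b on chromosome 2 was likewise covered over 100% in all 4 libraries.

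FMO1 carried the most enriched H3K27me3 peak of the 10 genes. Its peak was 2663 and 2550 bases long in 4 × Col-0, against 2669 and 2616 bases in Col-0, nearly the length of the gene (2550 bases), with a fold enrichment of 3.55 and 3.62 in 4 × Col-0, against 3.68 and 4.23 in Col-0. It covered 91.5% and 93.5% of the gene in 4 × Col-0, against 92.8% and 90.5% in Col-0. PR1 was covered over its whole length in all 4 libraries, with a fold enrichment of 1.80 and 1.87 in 4 × Col-0, against 1.57 and 1.94 in Col-0. On PAD3 the peak left the first part of the gene free and covered 59.4% and 73.3% in 4 × Col-0, against 50.1% and 72.6% in Col-0, with the lowest of these just at the 50% limit.

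PR2 alone of the 10 genes had H3K27me3 cover that did not overlap between the genotypes. Peaks covered 91.2% and 91.7% of it in 4 × Col-0, against 83.5% and 71.6% in Col-0 (means 91.5 ± 0.369% and 77.6 ± 8.48%, SD, n = 2 each). The difference of 13.9 percentage points was 7.93 without Col-0 replicate 2 and 19.9 without Col-0 replicate 1. The exact permutation test, two-sided, gave p = 0.333, the smallest that 2 libraries against 2 allow. Among all genes with a H3K27me3 peak in a library, both 4 × Col-0 libraries were higher on 12.7% and lower on 11.6%, so 1 gene of the 7 with such a peak is near this background. The difference was no longer present with a q-value limit of 1e-05, under which PR2 had no peak. A single peak ran from PR2 into BG1 in both 4 × Col-0 libraries and in Col-0 replicate 2 (3526, 3788 and 3571 bases), whereas in Col-0 replicate 1 the PR2 peak ended after 1661 bases.

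PR5 and PAD4 were the genes with mixed or partial marks. PR5 had a H3K4me3 peak over 61.0% and 69.1% of the gene in 4 × Col-0, against 57.1% and 61.1% in Col-0, and the genotypes overlapped narrowly. It also had short H3K27me3 peaks, at its 3′ end in both 4 × Col-0 libraries (27.5% and 31.3% of the gene) and at its 5′ end in Col-0 replicate 2 (30.2%), with none in Col-0 replicate 1. PAD4 had a H3K4me3 peak in 4 × Col-0 replicate 2 alone (9.20% of the gene). A H3K27me3 peak of 2672 to 3167 bases touched only the end of PAD4 (22.0% in 4 × Col-0 replicate 1, against 15.1% and 9.03% in the Col-0 libraries) and lay mainly over the neighbouring gene AT3G52440, and 4 × Col-0 replicate 2 had none.

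**Figure D4:**
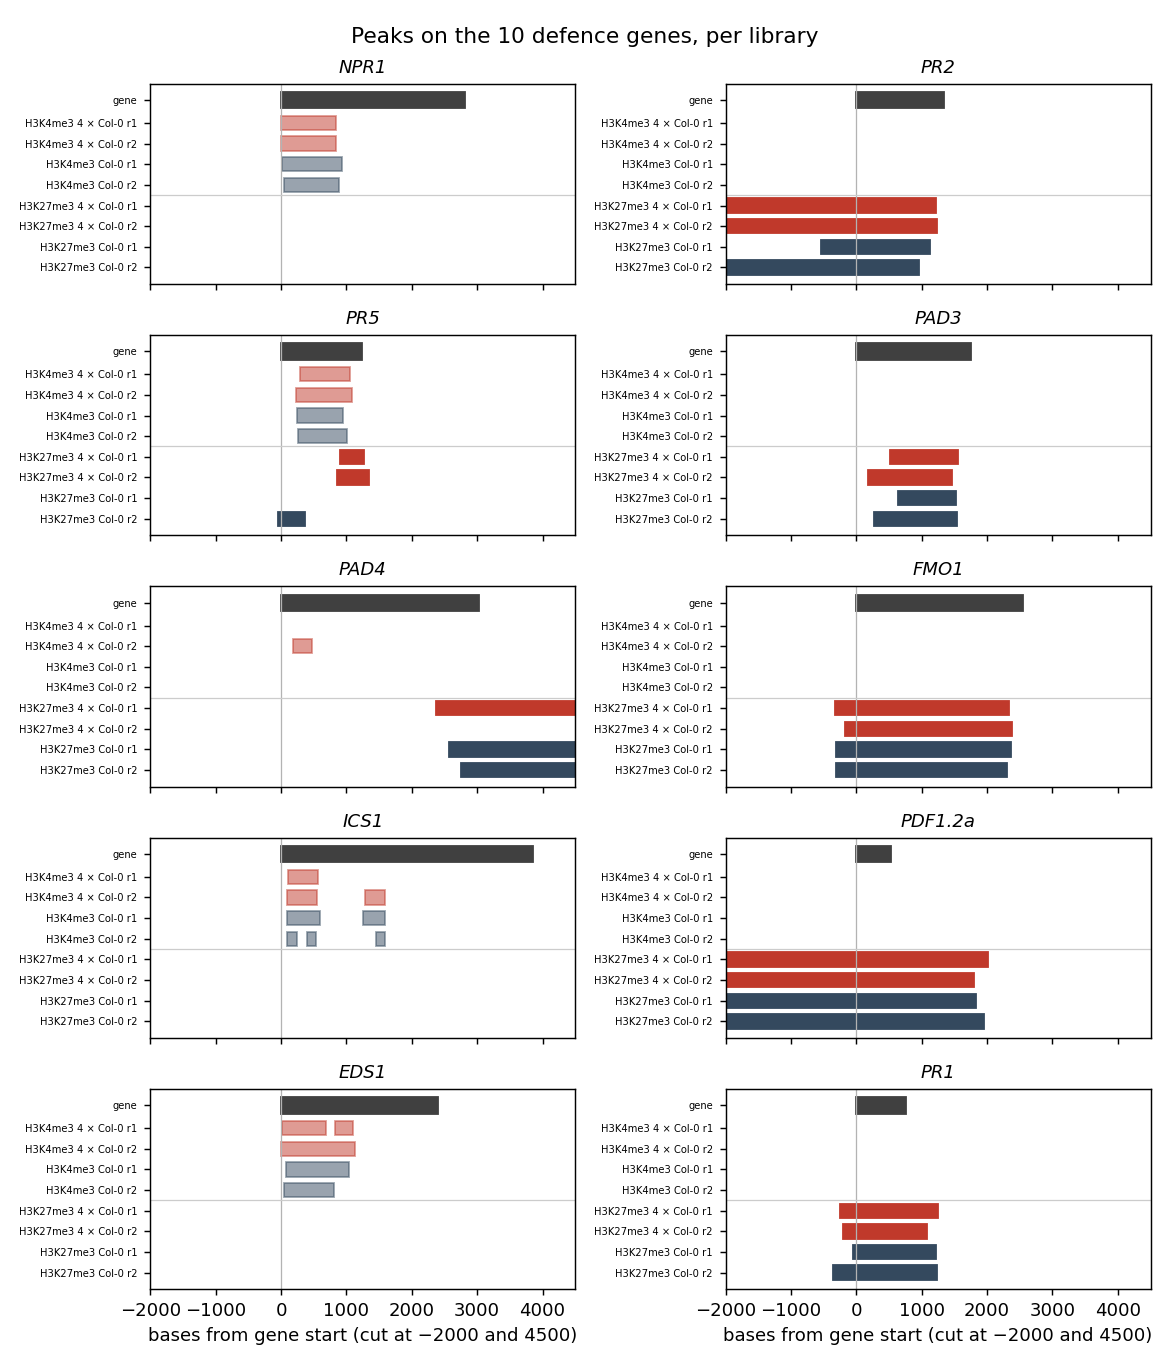
Rows show the peaks of each library on each gene as bars along the distance from the gene start in bases (horizontal axis, cut at both edges), with the gene in dark grey, H3K4me3 in pale and H3K27me3 in full colour, and 4 × Col-0 (red) above Col-0 (dark). The H3K4me3 peaks of NPR1, EDS1 and ICS1 lie in the first part of the gene. PR5 has short H3K27me3 peaks at its 3′ end in both 4 × Col-0 libraries and at its 5′ end in Col-0 replicate 2 alone. The H3K27me3 peaks of PDF1.2a in all 4 libraries and of PR2 in all but Col-0 replicate 1 run on beyond the left edge.

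The H3K4me3 peaks sat in the first part of NPR1, EDS1 and ICS1. ICS1 had a further peak between 1259 and 1594 bases from its start in all but 4 × Col-0 replicate 1. On EDS1 they covered 39.0% and 47.0% of the gene in 4 × Col-0, against 40.3% and 32.0% in Col-0. On ICS1 they covered 12.1% and 20.2% in 4 × Col-0, against 21.7% and 11.3% in Col-0, and on NPR1 30.0% and 29.6% in 4 × Col-0, against 32.3% and 29.8% in Col-0. The genotypes overlapped for EDS1 and ICS1. On NPR1 they overlapped too, since the lower Col-0 library lay between the 4 × Col-0 libraries. PR1, PR2, PDF1.2a, PAD3 and FMO1 had no H3K4me3 peak in any library and could not differ in cover. None of NPR1, EDS1, ICS1, PR5 and PAD4 had H3K4me3 cover that was higher or lower in both 4 × Col-0 libraries. Among all genes with a H3K4me3 peak in a library, 37.7% were higher and 4.93% lower, and the difference from these shares was not tested.

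To compare the height of the peaks, the log2 of the highest fold enrichment on each gene was fitted with limma over all genes with a peak in all 4 libraries, after centring each library on its median. That value belongs to the whole peak, also where the peak runs beyond the gene. None of the 4 tested genes passed an adjusted p of 0.05 for H3K4me3 (lowest adjusted p = 0.342 with limma and Benjamini-Hochberg adjustment, 1 of 4 at an unadjusted p under 0.05). Over 14742 genes, 0.0204% were called higher and 0.0271% lower, and 10.7% had an unadjusted p under 0.05. The gene at an unadjusted p under 0.05 was NPR1, with fold enrichments of 3.60 and 3.25 in 4 × Col-0, against 6.61 and 5.49 in Col-0. Both 4 × Col-0 values lay below both Col-0 values, as on 19.7% of genes after centring, with both higher on 20.4%. The log2 difference was -0.63 (SE 0.25, 95% interval -1.14 to -0.13, limma adjusted p = 0.342), while NPR1 differed little in FPKM (log2 ratio -0.02). The anti-H3 fold enrichment on NPR1 was 6.41 in 4 × Col-0, against 5.75 in Col-0, and its part in this difference was not tested.

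The other H3K4me3 values overlapped. PR5 had fold enrichments of 2.68 and 3.92 in 4 × Col-0, against 4.73 and 2.85 in Col-0 (log2 difference 0.00, 95% interval -0.52 to 0.52). EDS1 had 4.17 and 3.41 in 4 × Col-0, against 4.196 and 3.77 in Col-0 (log2 difference 0.11, 95% interval -0.40 to 0.62). ICS1 had 2.09 and 2.93 in 4 × Col-0, against 2.74 and 3.18 in Col-0 (log2 difference -0.07, 95% interval -0.58 to 0.44). These intervals are wide, so smaller changes of the mark were not detectable with 2 libraries per genotype.

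For H3K27me3 the intervals were narrower, and none of the 5 tested genes passed (lowest adjusted p = 0.452 with limma and Benjamini-Hochberg adjustment, 0 of 5 at an unadjusted p under 0.05). Over 6840 genes, 0.205% were called higher and 0% lower, and 13.2% had an unadjusted p under 0.05. For PR1 the difference was 0.14 on the log2 scale (SE 0.07, 95% interval -0.04 to 0.33, limma adjusted p = 0.452), with 0.054 left without Col-0 replicate 1 and 0.24 without Col-0 replicate 2. Both of its centred 4 × Col-0 values were higher, as on 23.7% of genes. The log2 difference was 0.07 for PAD3, -0.07 for FMO1, -0.02 for PDF1.2a and -0.01 for PR2. The 95% intervals of these 4 genes lay between -0.21 and 0.25. The PR2 value was that of the peak shared with BG1 in both 4 × Col-0 libraries and Col-0 replicate 2. In Col-0 replicate 1 PR2 had a separate peak (1.82, against 2.14 on BG1), so the PR2 difference compares unlike peaks. The PDF1.2a value was that of the peak shared with PDF1.2c in all 4 libraries. FMO1 had both centred 4 × Col-0 values lower, as on 23.4% of genes. Of the other pathway genes, 34 could be tested for H3K4me3 and 23 for H3K27me3, and 0 were called for either mark, with 2 and 1 at an unadjusted p under 0.05. In H3K4me3 these were PR4, with a log2 difference of -0.57 (SE 0.26, limma adjusted p = 0.412) and an FPKM log2 ratio of -1.14, and NIMIN2, which binds NPR1, with a log2 difference of 0.58 (SE 0.27, limma adjusted p = 0.429) and an FPKM log2 ratio of -0.11. In H3K27me3 it was CYP71A13 of camalexin synthesis, with -0.25 (SE 0.09, limma adjusted p = 0.334) and an FPKM log2 ratio of 0.13. NIMIN2 and CYP71A13 are named after their values were seen.

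**Figure D5:**
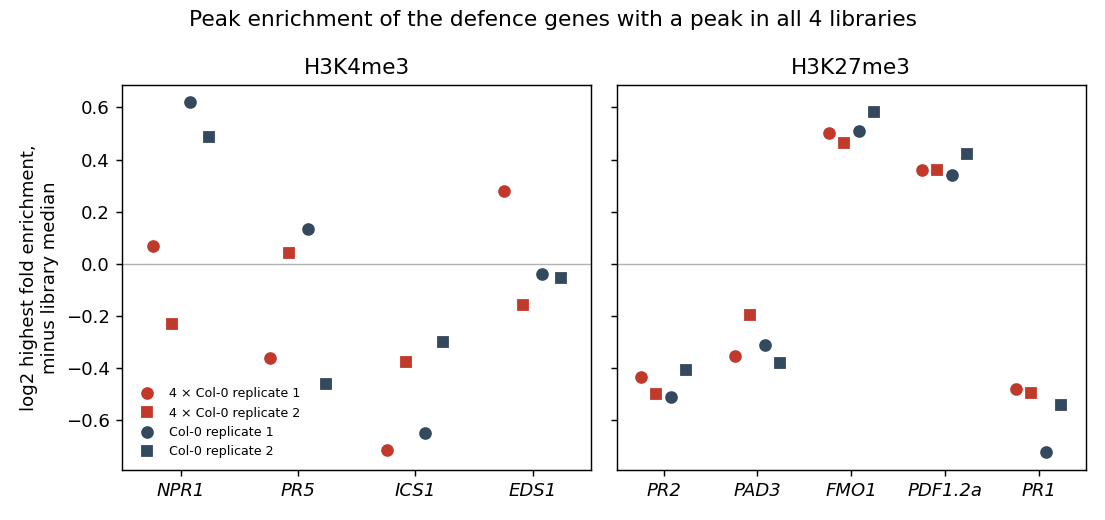
Points give the log2 of the highest fold enrichment on a gene minus the median of the library (vertical axis) for the genes with a peak in all 4 libraries, with 4 × Col-0 (red) left of Col-0 (dark) and circles and squares for replicates 1 and 2. NPR1 is lower in both 4 × Col-0 libraries for H3K4me3 (difference -0.63, adjusted p = 0.342), and FMO1 and PDF1.2a lie above the H3K27me3 median while PR1, PR2 and PAD3 lie below it.

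The Hi-C bins of 50 kb that hold the 10 gene starts were compared by their trans to cis ratio, the contact signal with other chromosomes over that with the same chromosome. The median ratio over 2376 bins was higher in 4 × Col-0, with 0.633 and 0.635 in 4 × Col-0, against 0.564 and 0.524 in Col-0. All 10 bins had a higher mean in 4 × Col-0, as the median bin did, but the libraries of the genotypes overlapped for PAD4. No share over all bins was computed for these uncentred ratios, so the 10 bins are not set apart from the shift of all bins. After centring each library on its median, none of the 10 bins passed (lowest adjusted p = 0.321 with limma and Benjamini-Hochberg adjustment, 1 of 10 at an unadjusted p under 0.05), as 0% of all bins did in either direction and 15.2% had an unadjusted p under 0.05. The bin of ICS1 had ratios of 0.679 and 0.680 in 4 × Col-0, against 0.655 and 0.5996 in Col-0, a smaller difference than the median bin (centred log2 difference -0.11, 95% interval -0.21 to -0.01, limma adjusted p = 0.321). Both centred 4 × Col-0 values were lower in the bins of ICS1 and PR2, as in 33.4% of bins, and higher in the bin of PDF1.2a, as in 17.2%. Without centring, 6 of the 10 bins were called higher (PR1, PDF1.2a, PAD3, EDS1, FMO1 and NPR1), as were 1467 of the 2376 bins.

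ICS1 and PR5 lie in bins 100 kb apart on chromosome 1. Their contact signal, over the mean of pairs at that distance on the chromosome, was 0.884 and 1.02 in 4 × Col-0, against 0.977 and 1.08 in Col-0, and the genotypes overlapped.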

How the data were processed

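RNA-seq, ChIP-seq and Hi-C files of 4 × Col-0 and Col-0 were used as deposited. The methods name STAR and featureCounts for the RNA reads, and the authors deposited FPKM as 1 value per gene and genotype. Which tool gave the FPKM values and how the 3 replicates were combined are not given in the sources used here. ChIP reads were aligned to TAIR10 with BWA, and the methods state that MACS2 was run with anti-H3 reads as control. With 1 anti-H3 library per genotype, that control is shared by both libraries of a mark. Its error then goes with the genotype and is not part of the spread that limma used. The control of the anti-H3 peak lists is not given. The lists as deposited give fold enrichment and -log10 q-values per library. Hi-C reads were processed by the authors with HiC-Pro and Juicer, and the deposited signal is KR-normalised contact in 50 kb bins. The names in the H3K4me3 peak lists carry "merge" and "Rep4", whose meaning is not given; the study calls these libraries biological replicates.

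The FPKM values are estimates and keep no whole reads (in 4 × Col-0 54 nuclear genes, against 49 in Col-0, lay above 0 and under 1e-06), so depth is unknown. FPKM was compared as log2(FPKM + 1) with a descriptive 2-fold limit and no test. The highest fold enrichment per gene and the trans to cis ratio per bin (2376 of 2385 bins) were log2-transformed, centred on the library median and fitted with limma 3.58.1 (R 4.3.3), with p-values adjusted over all features by Benjamini-Hochberg and called at 0.05. Peak coverage of genes was compared with an exact permutation test, two-sided. On simulated data, 200 genes per mark were changed, and the noise was normal with the same pooled SD for all genes. There 55% of log2 changes of 1 and 100% of 2 were recovered for H3K4me3 (14742 genes), with 7 false calls. For H3K27me3 (6840 genes) 100% of both were recovered, with 8 false calls. These rates hold for that setting only, since real genes can differ in spread. Sequences were read from TAIR10.1, and 3 of 10 upstream windows are shown; 32808 genes of the table matched its annotation, including all 10 members, and 98.4% had start and end within 1000 bases. The text names all 10 genes, their close relatives and, from each pathway list, every gene past 2-fold or, where fewer than 2 passed, the genes of at least 1 FPKM with the highest and lowest ratio. The members and lists were chosen with earlier results of these data known.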

Additional observations from a re-analysis of the deposited data

How the results depend on the processing

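Among the FPKM results, a pseudocount of 0.1 took 2 of the 10 genes past 2-fold. Under no setting was any of the 10 called for the marks. In Hi-C, 6 of the 10 bins were called without centring, since that fit keeps the shift of all bins, and 0 under the other settings. Without centring, log2 differences changed sign to -0.18 (PR5) and -0.077 (EDS1) for H3K4me3 and to -0.0018 (PAD3) for H3K27me3. In Hi-C they changed sign to 0.17 (PR2), 0.15 (PR5), 0.12 (PAD4), 0.12 (ICS1) and 0.22 (FMO1), and to 0.0097 for FMO1 with contacts inside a bin left out. Genes covered at 50% by H3K27me3 in all libraries numbered 2 with a q-value limit of 1e-05 (9.66% of nuclear genes). They numbered 3 with the 1 kb before the start (12.3% of nuclear genes), where the difference in cover of FMO1 was -1.01 percentage points. With that q-value limit, 0 genes had H3K27me3 cover that did not overlap.

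Leaving out 1 library each time, H3K4me3 log2 differences ranged from -0.29 to 0.30 (PR5), -0.11 to 0.33 (EDS1) and -0.25 to 0.10 (ICS1). Those of H3K27me3 ranged from 0.054 to 0.24 (PR1), -0.059 to 0.043 (PR2), -0.061 to 0.021 (PDF1.2a) and -0.0083 to 0.15 (PAD3). Those of Hi-C ranged from -0.041 to 0.11 (PR1), -0.00069 to 0.072 (PAD3), -0.022 to 0.030 (EDS1), -0.067 to 0.059 (FMO1) and -0.0085 to 0.016 (NPR1). Differences in H3K4me3 cover ranged from -5.59 to 4.81 percentage points (ICS1) and -2.50 to 0.018 (NPR1). Those in H3K27me3 cover ranged from 7.93 to 19.9 (PR2), -0.767 to 29.4 (PR5), -6.31 to 16.3 (PAD3), -12.1 to 9.97 (PAD4) and -0.294 to 2.02 (FMO1). Genes without overlap numbered 0 to 4 for H3K4me3 and 2 to 5 for H3K27me3, as 2 libraries against 1 overlap less by construction. No share over all genes was computed for 2 libraries against 1, so these counts have no background. The cause of the sign changes was not tested.

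With the replicate number as a replicate block, 0 of the 10 genes were called in each assay (lowest limma adjusted p = 0.516 for H3K4me3, 0.352 for H3K27me3 and 0.333 for Hi-C). Over all features the block changed the calls to 0 higher and 1 lower for H3K4me3, 35 and 54 for H3K27me3 and 36 and 20 for Hi-C. Same-numbered libraries had deviations correlated at -0.128, 0.102 and 0.206 in these 3 assays, and no label ties the numbers to a shared batch. Pairing the H3K4me3 numbers crosswise, an alternative chosen after seeing the data, also called 0 of 4 genes and 0 over all genes. With 1 FPKM value per genotype and 2 libraries per mark, small changes were not detectable.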

Other observations

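Of the 56 other pathway genes, 15 (26.8%) were covered by H3K27me3 over at least 50% in all 4 libraries, against 15.6% of nuclear genes, and 34 (60.7%) had H3K4me3 in all 4 libraries, against 44.3% of nuclear genes. Both marks in all 8 libraries were found on 9 pathway genes (16.1%), against 3.47% of nuclear genes and on 0 of the 10 genes. AOC3 of jasmonate synthesis, the chitinase gene PR3, and CYP79B2 and CYP79B3 of the camalexin pathway combined H3K4me3 with H3K27me3 over at least 50% of the gene. The other genes so covered by H3K27me3 were ALD1, UGT76B1, NIMIN1, WRKY38, WRKY62, VSP1, VSP2, PDF1.1, PDF1.3, CYP71A12 and CYP71A13. PR3, the gene with the lowest ratio in FPKM (log2 ratio -1.76), had log2 differences of 0.07 in H3K4me3 (limma adjusted p = 0.962) and 0.08 in H3K27me3 (limma adjusted p = 0.615).

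Relatives of the 10 genes did not always share their marks. PRB1 was covered by H3K27me3 over 100% of the gene in both 4 × Col-0 libraries, against 100% and 39.1% in the Col-0 libraries, and its fold enrichment was 1.85 and 1.82 in 4 × Col-0, against 1.58 and 1.71 in Col-0 (log2 difference 0.23 after centring, limma adjusted p = 0.239). Its anti-H3 fold enrichment was 5.20 in 4 × Col-0, against 4.57 in Col-0, and the part of H3 in the difference was not tested. EDS1B had no H3K4me3 peak in any library, while EDS1 had one in all 4. EDS1B also had no H3K27me3 or anti-H3 peak, and how ChIP reads were placed between these near-identical copies was not tested. The genes in these 2 paragraphs were picked after their values were seen.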
